A study of Homo sapiens with 3 samples.

Results

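Transcript levels of 47 genes of the DNA damage checkpoint and of DNA repair were followed across the 3 libraries of the series. The genes were taken from a fixed list of names, matched to the Ensembl gene IDs of the files through GENCODE 29. All 47 were found among the 48162 genes of each file, and all 47 are protein-coding. By role, 7 act in checkpoint signalling, 18 in homologous recombination, 12 in the Fanconi pathway, 3 in mismatch repair and 7 in end joining.

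All libraries came from MDA-MB-231, a human cell line from a breast cancer of the triple-negative kind, kept in 10% serum. Cultures were exposed to lentivirus for 24 h and harvested 72 h after a change of medium. Each of 3 groups has 1 library: control cells, cells depleted of FoxO3, and cells depleted of both FoxO3 and Geminin, here called the co-depletion. FoxO3 is a forkhead transcription factor, and Geminin (GMNN) keeps replicated DNA from being licensed again in the same cell cycle. The depleting sequences and the control vector were not given in the sources used here. Because each group is a single library, differences could not be checked against replicates, no p-value was computed, and every ratio compares libraries and not conditions. Fewer cells that express a gene and less RNA per cell cannot be told apart in such bulk RNA.

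Broken DNA is sensed by the MRN complex and stalled replication forks by proteins on single-stranded DNA, and these activate the kinases ATM and ATR. The kinases signal through CHEK2 and CHEK1 to halt the cell cycle while repair proceeds. Breaks are rejoined by end joining or copied from a sister chromatid by recombination, which needs BRCA1, PALB2 and BRCA2. The Fanconi proteins unhook crosslinked strands, and the MutS and MutL proteins correct replication errors. Many of these genes are transcribed most in S phase.

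Levels are given in FPKM, that is, fragments divided by transcript length and by library size. The length behind the FPKM was within 1 base of the mean over the annotated transcripts for 46.6% of genes, so levels of different genes are comparable only to that extent. The total behind the values, recovered from them, was 14507410 reads in the control library, 10760613 with FoxO3 depleted and 12267332 with both depleted. FOXO3 itself stood at 12.2, 2.79 and 2.94 FPKM in these libraries, in that order, and GMNN at 112, 112 and 36.99 FPKM. Of 8 markers of the line 6 were above 100 FPKM in every library, among them VIM at 593, 607 and 574 FPKM. SPARC was near 1 FPKM in all 3, and ZEB1 was lower in both depleted libraries, at 31.3, 11.5 and 11.2 FPKM. Of the luminal markers, the oestrogen receptor gene ESR1 was at most 0.12 FPKM, and PGR and FOXA1 were lower still. The other luminal markers were expressed, ERBB2 at 38.0, 41.6 and 46.8 FPKM, EPCAM at 13.7, 9.80 and 8.95 and GATA3 at 8.78, 12.1 and 12.6. The leukocyte markers summed to 73.4, 67.4 and 65.5 FPKM, mostly LAPTM5 at 66.5, 59.3 and 56.9 and CD14 at 6.76, 8.09 and 8.59, while CD3E and CD68 were listed at 0 and PTPRC was at most 0.19. The fibroblast markers summed to 19.9, 40.5 and 39.1 FPKM. These were mostly COL1A1 at 13.4, 25.3 and 24.3 and PDGFRB at 6.24, 15.03 and 14.4, each more than 1.5-fold higher in both depleted libraries. COL3A1 was at most 0.16 and LUM at most 0.36. The part of such markers in the results was not tested.

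About as many repair genes were at least 1.5-fold lower in the FoxO3 depletion as in the co-depletion. On the scale of log2(FPKM + 1), 21 of the 47 genes (44.7%) were at least 1.5-fold lower after FoxO3 depletion and 0 were higher. Over all 12649 analysed genes the share lower was 16.7% and the share higher 4.0%. After co-depletion 23 of the 47 (48.9%) were lower and 0 higher, against 12.3% and 4.02% of all analysed genes. The median log2 ratio of the 47 genes was -0.55 after FoxO3 depletion and -0.57 after co-depletion, while that of all analysed genes was -0.07 and -0.06. Both comparisons use the same control library, so they are not separate evidence. At 2-fold, 15 genes were lower after FoxO3 depletion and 7 after co-depletion, where 5.23% and 2.25% of all analysed genes were. At 2-fold 0 of the 47 were higher, against 0.672% and 0.625%. The counting interval of the ratio lay wholly under 1 for 32 of the 47 genes after FoxO3 depletion and for 33 after co-depletion. It lay wholly over 1 for 4 and 5. Such shares over all analysed genes are not given here, so these counts are not shown to be particular to the repair genes.

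Lower in both comparisons were 19 genes. The share of all analysed genes lower in both is not given here. Since the comparisons share the control library, this overlap is not evidence of its own. WRN and MSH6 passed 1.5-fold after FoxO3 depletion only, and BARD1, EXO1, FANCI and PRKDC after co-depletion only. These 6 lay close to the threshold in at least 1 comparison, BARD1 with log2 ratios of -0.58 and -0.67. The other 22 passed in neither. Exons of 14 of the 47 overlap those of another gene at 1 FPKM or more, and reads there may belong to either gene: ATM, ATRIP, BRCA1, CHEK1, CHEK2, FANCA, FANCI, FANCL, MRE11, MSH3, MSH6, RAD54L, TP53BP1 and XRCC3. Of the other 33 genes 15 were lower after FoxO3 depletion and 17 after co-depletion.

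**Figure D1:**
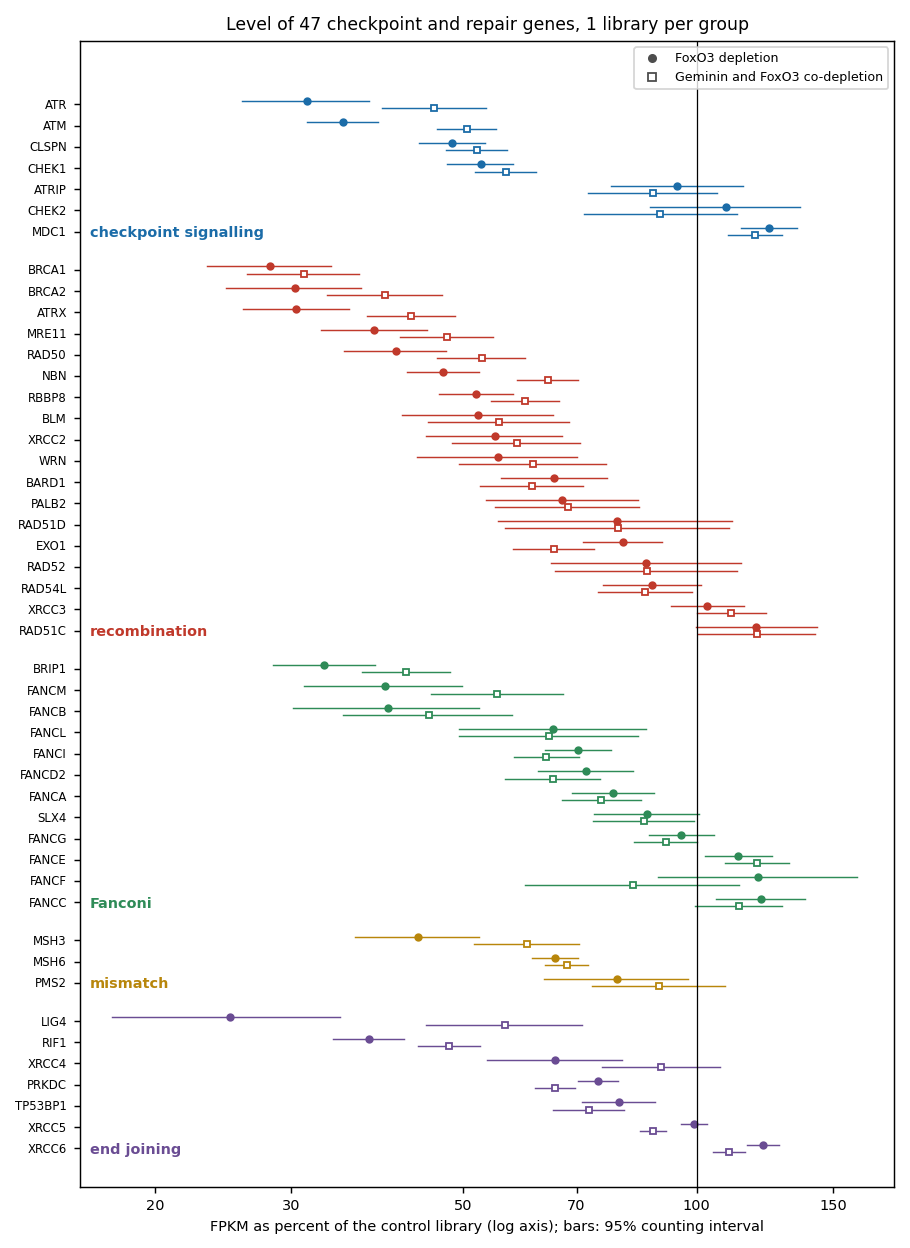
Level of each of the 47 genes as a percent of the control library, on a log axis, with filled circles for the FoxO3 depletion, open squares for the co-depletion and bars for 95% counting intervals. Every role holds genes below 70%, every role but mismatch repair also genes within 10% of control or above it, and BRCA1, at 28.2% and 31.1%, is the lowest of the recombination genes in both libraries.

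The AT-rich transcripts made up most of the lower genes. The 19 genes lower in both comparisons had a median GC content of 39.4% (35.7% to 43.9%), and the 22 called in neither had 48.4% (36.3% to 61.1%). The median over all analysed genes was 49.0%. Of the 20 genes under 42% GC, 17 were lower in each comparison. Of the 16 genes from 42% to 48% GC, 4 were lower after FoxO3 depletion and 6 after co-depletion, where 14.0% and 11.4% of all analysed genes in that class were. Of the 11 at 48% or more, 0 were lower in either, where 6.24% and 3.82% of all were, so that a count of 0 among 11 is near the background.

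All analysed genes showed the same gradient at a smaller size. Among those under 42% GC, 48.4% were lower after FoxO3 depletion, with a median log2 ratio of -0.57, where the 20 repair genes had -1.11. After co-depletion 36.0% were lower, with a median of -0.44 against -0.74. Of the 20 repair genes, 18 lay below the median of their GC class after FoxO3 depletion and 19 after co-depletion. Among all analysed genes at 48% GC or more the medians were 0.05 and 0.07, and the 11 repair genes had -0.07 and -0.17.

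Across the 47 genes, Spearman's rho between log2 ratio and GC content was 0.80 after FoxO3 depletion and 0.71 after co-depletion. Between log2 ratio and the length of the longest transcript it was -0.51 and -0.57. Over all 12649 genes the values were 0.41 and 0.44 for GC content and -0.20 for length in both comparisons. These are descriptions across genes that share 3 libraries. The genes lower in both had a median longest transcript of 6048 bases, and those called in neither 3388.

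**Figure D2:**
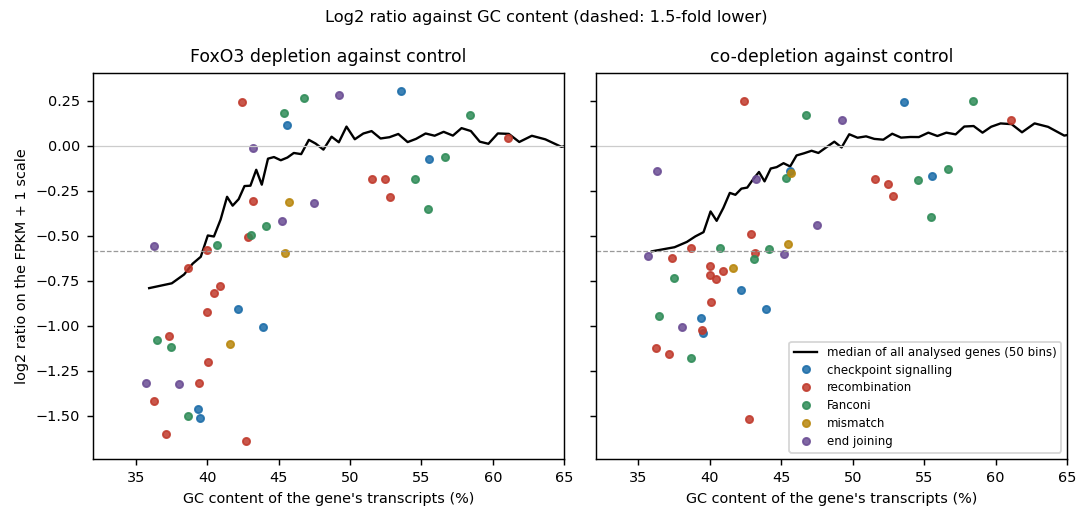
Log2 ratio on the FPKM + 1 scale against the GC content of the transcripts, 1 point per repair gene coloured by role, with the black line for the running median of all analysed genes in 50 bins and the dashed line for 1.5-fold lower. Most points left of 42% lie below the black line, and every point right of 48% lies above the dashed line.

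Subtracting the running median of genes with like GC content left 14 of the 47 genes (29.8%) lower after FoxO3 depletion, where 11.3% of all analysed genes were lower. After co-depletion it left 8 (17.0%) against 7.21%. None of the 47 was then higher, against 4.1% and 3.49% of all analysed genes. A further adjustment for transcript length left 11 genes (23.4%) against 11.0% and 4 (8.51%) against 6.93%. The share after co-depletion was then near that of all genes. Again 0 of the 47 were higher, against 4.06% and 3.49%. The median log2 ratio of the 47 genes after both adjustments was -0.33 and -0.34, where all analysed genes had -0.07 and -0.06, and 37 and 39 of the 47 lay below that median.

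The 8 genes lower in both comparisons after GC adjustment were ATR, ATRX, BRCA1, BRCA2, BRIP1, CHEK1, CLSPN and MRE11. The share of all analysed genes lower in both after GC adjustment is not given here. The 4 that stayed lower after co-depletion with both adjustments were BRCA1, BRIP1, CHEK1 and CLSPN, which were also among the 11 after FoxO3 depletion. BRCA1 went from log2 ratios of -1.64 and -1.52 to -1.49 and -1.35 with GC adjustment, and CLSPN from -1.01 and -0.91 to -0.90 and -0.78.

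**Figure D3:**
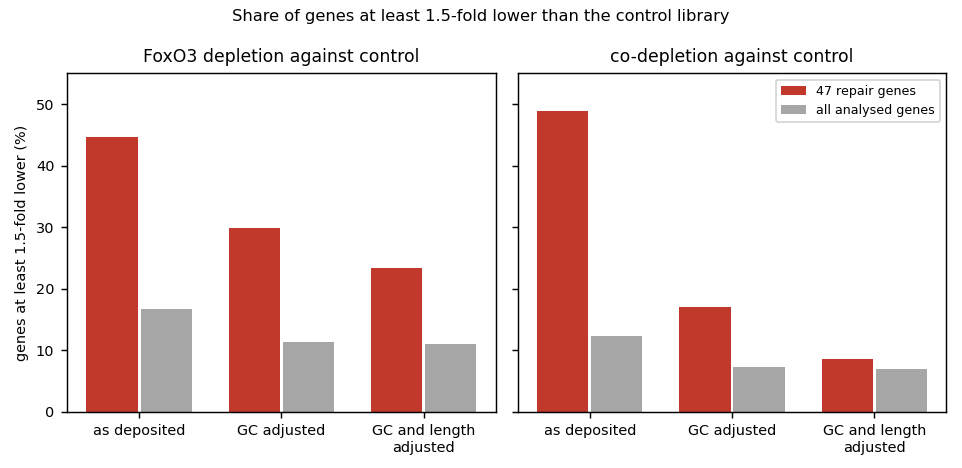
Share of genes at least 1.5-fold lower than the control library, for the 47 repair genes in red and all 12649 analysed genes in grey, as deposited, after GC adjustment and after GC and length adjustment. The red bar goes from 44.7% to 23.4% in the FoxO3 depletion and from 48.9% to 8.51% in the co-depletion, next to a grey bar of 6.93%.

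Promoter sequence is shown for genes at both ends of the range, to set beside the AT-rich transcripts of the lower genes and to show the motifs counted below. The 250 bases before the start had a median GC content of 64.4% for 17 genes lower in both comparisons, 64.8% for 21 called in neither and 65.2% for 9460 analysed genes. The sequences are from RefSeq on GRCh38.p14, which matched 41 of the 47 genes. Of the 3 lowest genes in that table BRIP1 and ATR are shown, and of the 3 highest RAD51C and FANCC, leaving out stretches that GENCODE 29 annotates as exon. BRCA1 and MDC1 are not shown, because all 250 of their bases are annotated as exon. The 30 bases after the RefSeq start were found in a GENCODE 29 transcript of the gene for 34 of the 41, BRIP1 and BRCA1 not among them. Capitals mark matches to the motifs named after them.
BRIP1, chr17:61863529-61863778 (- strand, 250 bases): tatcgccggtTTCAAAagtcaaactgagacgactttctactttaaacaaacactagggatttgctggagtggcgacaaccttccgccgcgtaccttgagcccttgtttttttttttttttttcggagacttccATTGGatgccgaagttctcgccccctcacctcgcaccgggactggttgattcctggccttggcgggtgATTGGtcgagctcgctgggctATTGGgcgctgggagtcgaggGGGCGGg
ATR, chr3:142578827-142578983 (- strand, 157 bases): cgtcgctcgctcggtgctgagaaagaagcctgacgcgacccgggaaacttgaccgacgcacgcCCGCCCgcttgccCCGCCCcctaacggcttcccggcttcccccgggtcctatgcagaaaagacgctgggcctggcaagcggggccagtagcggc
RAD51C, chr17:58692323-58692572 (+ strand, 250 bases): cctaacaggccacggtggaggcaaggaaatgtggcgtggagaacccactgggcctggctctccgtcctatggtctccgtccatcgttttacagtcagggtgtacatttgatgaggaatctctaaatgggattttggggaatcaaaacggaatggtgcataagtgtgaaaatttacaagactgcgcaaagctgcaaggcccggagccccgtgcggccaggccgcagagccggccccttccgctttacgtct
FANCC, chr9:95317710-95317959 (- strand, 250 bases): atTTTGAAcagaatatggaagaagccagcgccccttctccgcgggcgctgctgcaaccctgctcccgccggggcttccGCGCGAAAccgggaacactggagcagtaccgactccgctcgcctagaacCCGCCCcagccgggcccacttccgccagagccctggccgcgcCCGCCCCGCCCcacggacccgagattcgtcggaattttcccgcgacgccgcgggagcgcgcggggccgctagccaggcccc
Motifs were searched on both strands in the full 250 bases, stretches annotated as exon included, and overlapping matches were kept. The counts thus include matches in bases not printed above, such as the ETS match of ATR. The NF-Y motif CCAAT was in 20 of 41 repair promoters (48.8%) and 35.3% of the analysed promoters. BRIP1 holds 3 matches to it, in reverse as ATTGG. The ETS motif CCGGAAG was in 13 of 41 (31.7%) against 16.8%, and the SP1 motif GGGCGG in 30 of 41 (73.2%) against 68.6%. The E2F motifs TTTCGCGC, TTTGGCGC and TTCCCGCC were in 6 of 41 (14.6%) against 6.23%, 2 of them among the genes lower in both and 4 among those called in neither. The CHR motif TTTGAA was in 5 of 41 (12.2%) against 8.21%. The forkhead motif TGTTTAC, which FoxO factors bind, was in 0 of 41 against 1.88%. Over all 27305 promoters of the table the shares were 33.0% for CCAAT, 8.82% for CCGGAAG, 42.3% for GGGCGG, 3.71% for the E2F motifs, 13.6% for TTTGAA and 2.98% for TGTTTAC. A match is a run of letters and no evidence of binding.

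Checkpoint signalling genes had the lowest median log2 ratio of the 5 roles in both comparisons, -0.91 after FoxO3 depletion and -0.80 after co-depletion. Of these 7 genes 4 were lower in each, against 16.7% and 12.3% of all analysed genes. ATM (ENSG00000149311), the kinase activated by double-strand breaks, was at 50.7 FPKM in control cells, 17.7 with FoxO3 depleted and 25.6 with both depleted. That is 35.00% of control (31.5% to 38.9%) with FoxO3 depleted and 50.5% (46.3% to 55.1%) with both depleted, the brackets giving the 95% counting interval here and below. ATR (ENSG00000175054), the kinase of stalled forks, was at 17.96 FPKM in control cells, 5.64 with FoxO3 depleted and 8.24 with both depleted, or 31.4% of control (25.9% to 37.8%) with FoxO3 depleted and 45.8% (39.2% to 53.4%) with both depleted. Both kinases were thus lowest in the FoxO3 depletion and intermediate in the co-depletion. After GC adjustment ATM was no longer past 1.5-fold after co-depletion, at a log2 ratio of -0.52.

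CLSPN, the adaptor that brings CHEK1 to ATR, was at 17.1 FPKM with FoxO3 depleted and 18.4 with both depleted, against 35.4 in control cells. That is 48.3% of control (43.8% to 53.3%) with FoxO3 depleted and 52.04% (47.5% to 56.96%) with both depleted. CHEK1, the effector kinase of the ATR branch, was at 40.9 FPKM with FoxO3 depleted and 44.2 with both depleted, against 77.8 in control cells, which is 52.6% of control (47.7% to 57.99%) with FoxO3 depleted and 56.8% (51.8% to 62.1%) with both depleted. These genes, unlike ATM, stayed past 1.5-fold after GC and length adjustment in both comparisons. CHEK1 shares 80 exonic bases with STT3A on the same strand, which was at 357 FPKM in the control library and at 431 and 440.5 in the FoxO3 depletion and the co-depletion, so reads there may belong to either gene.

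The other 3 checkpoint genes were not lower. ATRIP, the obligate partner of ATR, was at 9.69, 9.15 and 8.52 FPKM in the order control, FoxO3 depletion, co-depletion, and its exons share 1515 bases with TREX1. CHEK2, the effector kinase of the ATM branch, was at 9.69, 10.6 and 8.70 FPKM. MDC1, the scaffold on phosphorylated H2AX, was at 38.04, 47.2 and 45.3 FPKM, or 124% of control (114% to 135%) with FoxO3 depleted and 119% (109.6% to 129%) with both depleted, above control beyond counting error but under 1.5-fold in both. Their transcripts had GC contents of 55.5%, 45.6% and 53.6%. The lower checkpoint genes had 39.3% for ATM, 39.5% for ATR, 42.2% for CHEK1 and 43.9% for CLSPN. CLSPN thus lay close to CHEK2 in GC content.

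Among the recombination genes 10 of 18 were lower after FoxO3 depletion and 11 after co-depletion, with medians of -0.73 and -0.65. Of all analysed genes 16.7% and 12.3% were lower. After GC adjustment 5 and 4 of the 18 were lower (27.8% and 22.2%), against 11.3% and 7.21% of all analysed genes. The break sensor, the MRN complex, had lower RNA for all 3 subunits. Its nuclease MRE11 was at 34.1, 13.1 and 16.2 FPKM, again in the order control, FoxO3 depletion, co-depletion, which holds for the triplets below. The zinc-hook subunit RAD50 was at 21.9, 8.96 and 11.6 FPKM. The regulatory subunit NBN was at 51.4, 24.2 and 33.00 FPKM. RNA of the 3 genes was thus between 38.4% and 47.1% of control after FoxO3 depletion and between 47.7% and 64.3% after co-depletion. Protein was not measured. After GC adjustment NBN had log2 ratios of -0.36 and -0.11 and passed 1.5-fold in neither comparison, and RAD50 did not pass after co-depletion, at -0.55.

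End resection by MRN is extended by other nucleases and helicases. RBBP8 (CtIP), the MRN cofactor, was at 57.9, 30.04 and 34.8 FPKM. EXO1, the long-range exonuclease, was at 40.6, 32.6 and 26.6 FPKM, lowest in the co-depletion. The RecQ helicases BLM and WRN were at 9.73, 5.08 and 5.41 FPKM and 5.43, 3.01 and 3.34 FPKM. These 4 genes were between 51.9% and 80.3% of control after FoxO3 depletion, and the intervals of all 4 lay under 100% in both comparisons. After GC adjustment none of the 4 was past 1.5-fold in either comparison, and WRN had log2 ratios of -0.07 and -0.10.

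BRCA1 (ENSG00000012048), the ubiquitin ligase that promotes resection and strand exchange, had the lowest log2 ratios of all 47 genes in both comparisons. It was at 17.4 FPKM in control cells, 4.92 with FoxO3 depleted and 5.43 with both depleted, resting on 684, 143 and 180 reads. That is 28.2% of control (23.4% to 33.8%) with FoxO3 depleted and 31.1% (26.3% to 36.7%) with both depleted. BARD1, its RING partner, was at 22.2, 14.6 and 13.6 FPKM, or 65.5% of control (55.98% to 76.5%) with FoxO3 depleted and 61.3% (52.5% to 71.3%) with both depleted. The partners thus lay far apart in both depleted libraries. BARD1 has 40.0% GC and a longest transcript of 5499 bases, and BRCA1 has 42.7% GC and 7270 bases. The part of GC content or length in this pair was not tested. After GC adjustment BARD1 passed 1.5-fold in neither comparison.

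BRCA2, which loads the strand-exchange recombinase on single strands, was at 8.71, 2.64 and 3.45 FPKM, or 30.3% of control (24.7% to 36.9%) with FoxO3 depleted and 39.6% (33.3% to 46.97%) with both depleted. PALB2, which joins BRCA1 to BRCA2, was at 9.46, 6.35 and 6.45 FPKM, or 67.1% of control (53.5% to 83.9%) with FoxO3 depleted and 68.2% (54.95% to 84.4%) with both depleted. BRCA2 was past 2-fold lower in both libraries and PALB2 past 1.5-fold in neither.

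The 4 recombinase paralogs among the 47 genes, which stabilise the strand-exchange filament, differed in direction, most of them within or barely beyond counting error. XRCC2 was lower, at 11.99, 6.58 and 7.03 FPKM, but not past 1.5-fold after GC adjustment (-0.43 and -0.40). XRCC3 was at 38.2, 39.4 and 42.3 FPKM, although 5756 exonic bases that it shares with KLC1 make its reads uncertain. RAD51C was at 19.97, 23.8 and 23.9 FPKM and RAD51D at 5.91, 4.66 and 4.69 FPKM. After FoxO3 depletion the intervals of RAD51C (99.7% to 143%), RAD51D (55.5% to 111%) and XRCC3 (92.6% to 115%) held the control level. After co-depletion that of RAD51D (56.7% to 110%) did too, and those of RAD51C (100.5% to 142%) and XRCC3 (100.01% to 123%) began just above it. RAD51C, at 42.4% GC, was the only gene under 43% GC with a positive log2 ratio in either comparison, at 0.25 and 0.25. RAD52, a single-strand annealing factor, was at 7.30, 6.29 and 6.30 FPKM, and the translocase RAD54L at 30.9, 27.1 and 26.5 FPKM, and neither passed 1.5-fold. ATRX, a chromatin remodeller that acts with recombination at telomeres, was at 26.8, 8.15 and 11.5 FPKM, or 30.5% of control (25.96% to 35.6%) with FoxO3 depleted and 42.9% (37.6% to 48.8%) with both depleted, the second lowest log2 ratio after FoxO3 depletion.

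The Fanconi genes were lower in 3 of 12 after FoxO3 depletion and 4 of 12 after co-depletion, with medians of -0.40 and -0.48. The first count is near the 16.7% of all analysed genes, and the second stands against 12.3%. After GC adjustment 1 of 12 (8.33%) was lower in each, near the 11.3% and 7.21% of all analysed genes. BRIP1 (FANCJ), the helicase that binds BRCA1, was at 29.3 FPKM in control cells, 9.68 with FoxO3 depleted and 12.3 with both depleted, or 33.1% of control (28.4% to 38.4%) with FoxO3 depleted and 42.2% (36.98% to 48.1%) with both depleted. It was the only Fanconi gene past 1.5-fold after GC adjustment, with log2 ratios of -0.89 and -0.72. FANCM, the translocase that finds the crosslink, was at 8.20, 3.24 and 4.54 FPKM, and FANCB, an X-linked core subunit, at 7.09, 2.84 and 3.20 FPKM. Both are AT-rich, at 37.5% and 36.5% GC, and both were under 1.5-fold after GC adjustment.

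The other core complex subunits were closer to control. FANCL, the ubiquitin ligase of the complex, was at 11.6, 7.57 and 7.48 FPKM. FANCA was at 46.8, 36.5 and 35.3 FPKM, with 2302 exonic bases shared with ZNF276, and FANCG at 67.9, 64.9 and 61.9 FPKM. FANCC, FANCE and FANCF were above control after FoxO3 depletion, at 121%, 113% and 120.0%, with an interval of 89.2% to 161% for FANCF. After co-depletion FANCC and FANCE were at 113% and 119.8% and FANCF at 82.8%, the last on 70 reads and with an interval of 60.1% to 113%. The 8 core genes thus ran from 39.6% to 121% of control after FoxO3 depletion.

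FANCD2 and FANCI, the pair that the core complex ubiquitinates, stayed close to each other. FANCD2 was at 16.7, 12.05 and 10.9 FPKM, or 71.95% of control (62.3% to 82.9%) with FoxO3 depleted and 65.2% (56.6% to 75.03%) with both depleted. FANCI was at 50.4, 35.4 and 32.3 FPKM, or 70.3% of control (63.7% to 77.5%) with FoxO3 depleted and 64.02% (58.1% to 70.5%) with both depleted. SLX4, the scaffold of the nucleases that unhook the crosslink, was at 6.37, 5.49 and 5.44 FPKM and passed 1.5-fold in neither comparison.

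In mismatch repair MSH3, which recognises larger loops, was at 18.9 FPKM in control cells, 8.26 with FoxO3 depleted and 11.4 with both depleted, or 43.7% of control (36.3% to 52.5%) with FoxO3 depleted and 60.4% (51.6% to 70.5%) with both depleted. MSH6, which recognises single mismatches, was at 82.5 FPKM in control cells, 54.1 with FoxO3 depleted and 56.1 with both depleted, or 65.7% of control (61.4% to 70.2%) with FoxO3 depleted and 68.05% (63.8% to 72.5%) with both depleted. The MutL subunit PMS2 was at 11.2, 8.86 and 10.03 FPKM. MSH3 and MSH6 were past 1.5-fold lower after FoxO3 depletion, also with GC adjustment, and MSH3 alone after co-depletion, where neither passed with GC adjustment. PMS2 has near-identical copies, of which PMS2P1 was listed at 6.88, 6.51 and 6.92 FPKM and PMS2P3 at 5.61, 4.94 and 5.22, so the division of reads is uncertain.

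End joining genes divided by protein. Of the 7 genes 2 were lower after FoxO3 depletion and 3 after co-depletion, with medians of -0.42 and -0.44. Of all analysed genes 16.7% and 12.3% were lower. After GC adjustment 2 and 0 of the 7 were lower, against 11.3% and 7.21% of all analysed genes. The Ku subunits XRCC5 and XRCC6, which ring the broken end, had the highest levels of the 47 genes per length. XRCC5 was at 286, 284 and 251 FPKM and XRCC6 at 274, 334 and 302 FPKM. PRKDC, the catalytic subunit that Ku recruits, was at 138, 103 and 91.02 FPKM, or 74.7% of control (70.3% to 79.3%) with FoxO3 depleted and 65.7% (61.9% to 69.8%) with both depleted. After GC adjustment PRKDC was under 1.5-fold in both comparisons. The Ku genes thus lay within 87.8% to 122% of control, and PRKDC below both in each library.

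LIG4, the ligase of the pathway, had the lowest percent of control of all 47 genes in the FoxO3 depletion. It was at 3.96 FPKM in control cells, 0.99 with FoxO3 depleted and 2.24 with both depleted, resting on 232, 43 and 111 reads. That is 24.99% of control (17.6% to 34.7%) with FoxO3 depleted and 56.6% (44.7% to 71.2%) with both depleted. GC adjustment took its log2 ratio after co-depletion from -0.61 to -0.08, which ends that call, and left -0.60 after FoxO3 depletion. XRCC4, its scaffold, was at 13.7, 8.98 and 12.3 FPKM, or 65.6% of control (53.6% to 80.1%) with FoxO3 depleted and 90.05% (75.6% to 107%) with both depleted. At like GC content, 35.7% and 36.3%, the scaffold was closer to control than the ligase in both libraries.

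TP53BP1 and RIF1 protect ends from resection and so favour end joining. RIF1, the effector, was at 28.5, 10.8 and 13.7 FPKM, or 37.8% of control (33.9% to 41.99%) with FoxO3 depleted and 47.97% (43.7% to 52.6%) with both depleted. TP53BP1, which recruits it, was at 24.2, 19.2 and 17.6 FPKM, or 79.4% of control (71.2% to 88.4%) with FoxO3 depleted and 72.6% (65.2% to 80.7%) with both depleted, with 3732 exonic bases shared with TUBGCP4. After GC adjustment RIF1 was past 1.5-fold lower in the FoxO3 depletion and not in the co-depletion, with log2 ratios of -0.67 and -0.52.

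The third comparison sets the co-depletion against the FoxO3 depletion, and so asks what differs when Geminin is depleted as well. Of the 47 genes 1 was at least 1.5-fold higher and 0 were lower, against 1.35% and 0.617% of all analysed genes. The one was LIG4, at an FPKM ratio of 2.26 (1.58 to 3.30) and a log2 ratio of 0.70 on the FPKM + 1 scale used for calls, which is under 2-fold. After GC adjustment, alone or with length, 0 were higher or lower, against 1.25% and 0.64% or 1.26% and 0.593% of all analysed genes. At 2-fold on that scale 0 were higher or lower, against 0.126% and 0.0632%. The median log2 ratio of the 47 genes was 0.08, and that of all analysed genes 0.03.

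By sign, 29 of the 47 genes (61.7%) were higher in the co-depletion than in the FoxO3 depletion, as were 56.4% of all analysed genes. The 14 genes whose counting interval lay wholly over 1 all had under 42% GC, and they included ATR, at a ratio of 1.46 (1.18 to 1.81), ATM at 1.44 (1.28 to 1.63), ATRX at 1.41 (1.17 to 1.69) and NBN at 1.36 (1.21 to 1.53). The 5 whose interval lay wholly under 1 were EXO1, FANCF, PRKDC, XRCC5 and XRCC6, with GC contents from 43.2% to 49.3%. Shares of all analysed genes with such intervals are not given here. EXO1 had a ratio of 0.82 (0.71 to 0.93) and PRKDC 0.88 (0.82 to 0.94). Of the 20 repair genes under 42% GC, 18 were higher in the co-depletion, as were 73.0% of all analysed genes under 42% GC.

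Other genes of the damage response, on 10 lists chosen with earlier results of these data known, are given here by count. Counts lower are to be read against the 16.7% and 12.3% of all analysed genes that were lower, and the 11.3% and 7.21% after GC adjustment. Counts higher are to be read against 4.0% and 4.02% of all analysed genes, and 4.1% and 3.49% after GC adjustment. Among 19 other checkpoint genes 3 were lower and 1 higher after FoxO3 depletion. After co-depletion 1 was lower and 1 higher, and the medians were 0.01 and 0.02. The shares lower were below those of all genes, and 1 of 19 higher is near the share of all genes. ETAA1, an activator of ATR, was lower at 8.37, 2.88 and 3.23 FPKM (after GC adjustment in the co-depletion only), and CDC25A, the phosphatase that CHEK1 targets, was higher at 30.7, 64.8 and 55.9 FPKM. Among 27 other recombination and resection genes 9 and 7 were lower and 0 higher (medians -0.32 and -0.29), and 4 and 1 after GC adjustment. They include the helicase RECQL, at 38.2, 13.3 and 19.8 FPKM, the resolvase GEN1 at 14.8, 5.96 and 7.67 FPKM, SFR1 at 20.5, 8.44 and 9.74 FPKM and RAD54B at 6.37, 2.36 and 3.11 FPKM. With GC adjustment RECQL was past 1.5-fold in both comparisons, SFR1 and GEN1 after FoxO3 depletion only and RAD54B in neither.

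Among 15 other crosslink repair genes 3 were lower in each comparison, and 0 and 1 higher (medians -0.17 and -0.27), and 2 and 1 were lower after GC adjustment. REV3L, the catalytic subunit of polymerase zeta, was at 6.95, 2.28 and 3.20 FPKM, and USP1, the deubiquitinase of FANCD2, at 88.5, 49.9 and 56.9 FPKM. With GC adjustment REV3L was past 1.5-fold after FoxO3 depletion only and USP1 in neither. Among 12 other mismatch repair genes 4 and 3 were lower and 0 higher (medians -0.43 and -0.44), with the clamp loader RFC1 at 77.3, 45.7 and 50.6 FPKM and MLH3 at 8.51, 4.80 and 5.16 FPKM. After GC adjustment 2 were lower in each comparison, and RFC1 and MLH3 were past 1.5-fold in neither. Among 19 other genes of end joining and end choice 1 and 2 were lower and 0 higher (medians -0.06 and -0.07), and 2 and 1 after GC adjustment. The one lower in both was POLQ, the polymerase of microhomology-mediated joining, at 7.20, 2.67 and 3.47 FPKM.

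Excision repair genes mostly lay close to control. Of 14 base excision genes 1 was lower in each comparison and 0 higher (medians -0.06 and -0.05), the glycosylase NEIL3, at 16.1, 6.80 and 7.66 FPKM. Of 16 nucleotide excision genes 3 were lower in each and 0 higher (median -0.05 after FoxO3 depletion), a share near that of all genes after FoxO3 depletion, and 3 and 1 after GC adjustment. The 3 were ERCC6, which couples repair to transcription, at 14.6, 6.86 and 8.24 FPKM, the endonuclease ERCC5 at 3.56, 2.02 and 1.67 FPKM and CETN2 at 31.6, 18.03 and 19.7 FPKM, of which ERCC5 alone was past 1.5-fold after GC adjustment in the co-depletion.

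Targets of p53 in the damage response were lower in 3 and higher in 2 of 16 after FoxO3 depletion, and in 0 and 1 after co-depletion (medians 0.12 and 0.01). Of all analysed genes 16.7% and 12.3% were lower, and 4.0% and 4.02% higher. After GC adjustment 2 and 0 were lower, and 1 was higher in each comparison. GADD45A, higher in both with and without GC adjustment, was at 55.9, 112 and 108 FPKM. The activity of p53 was not tested. Of 19 S phase genes 1 was lower after FoxO3 depletion and 0 after co-depletion, and 0 were higher (medians -0.08 and -0.21). Of 16 mitotic genes 5 were lower in each and 0 higher (medians 0.03 and -0.15), among them TOP2A at 478, 175 and 213 FPKM, KIF11 at 41.2, 18.7 and 22.02 FPKM, CDK1 at 122, 58.2 and 67.8 FPKM and TTK at 36.5, 17.7 and 19.5 FPKM. After GC adjustment 2 of the 16 were lower in each comparison, TOP2A among them, and KIF11, CDK1 and TTK were past 1.5-fold in neither. The part of the cell cycle in the levels of the repair genes was not tested.

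**Figure D4:**
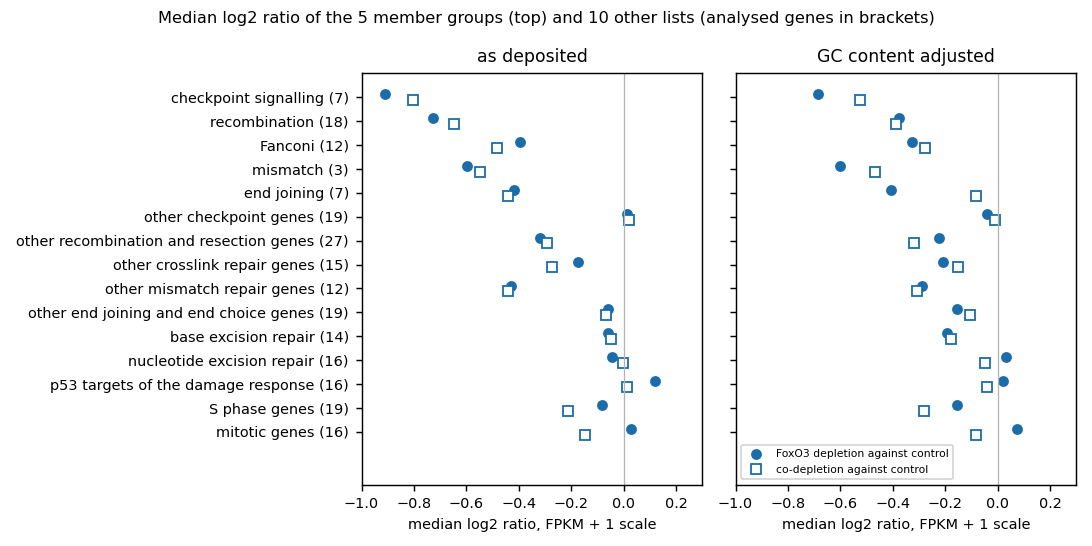
Median log2 ratio on the FPKM + 1 scale for the 5 roles of the 47 genes and for 10 other lists, with filled circles for the FoxO3 depletion and open squares for the co-depletion, as deposited on the left and after GC adjustment on the right. Checkpoint signalling is farthest left in both panels, moving from -0.91 and -0.80 to -0.69 and -0.52.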

How the data were processed

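RNA of 3 cultures of MDA-MB-231 was sequenced, 1 library per group, and groups were read from the titles with the series' design text. The deposited values are FPKM per Ensembl gene, computed by the authors. Alignment used TopHat2 2.0.9, per the submitters' processing notes. The read counter, genome build, annotation and strand use were not given in the sources used here, so no gene coordinates are given and overlapping genes cannot be told apart. Names, transcript lengths and GC content (over all transcripts of a gene) came from GENCODE 29, which matched 45341 of 48162 IDs.

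Totals of reads were taken from the commonest product of FPKM and length among genes with 1 transcript. For each gene the smallest whole length up to 30000 bases that gives whole reads in every library was then sought, with a tolerance of 0.0001 reads plus 1e-07 of the count. Of 20591 genes with a value in 2 or more libraries, 20589 gave whole reads, as did 0.7% of 2000 random values. Reads may be the true number divided by a common factor, and for 3 of the 47 genes (PRKDC, XRCC2 and XRCC6) the implied length is under 60% of the annotated mean. The 95% interval of each FPKM ratio was converted from the exact Clopper-Pearson interval of 1 library's share of the reads of both (SciPy 1.17.1), and covers counting error only.

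Ratios are log2 of (FPKM + 1) over (FPKM + 1), which understates differences of low genes, over 12649 named genes with a mean of at least 1 FPKM, which all 47 genes passed. Genes were called by size alone, at 1.5-fold. The adjustments subtract the running median of the log2 ratio over 50 bins of GC content, and then of the longest transcript's length. The GC adjustment was checked on simulated data with 200 changed genes, and the length adjustment was not. The alternatives were pseudocounts of 0.1 and 0.5, no minimum or a mean of 5 FPKM, rescaling by the median ratio or to TPM, both adjustments and 2-fold calls. Genes, lists and tests were chosen with earlier results of these data known, and partner proteins were set side by side after their values had been seen. From each other list the text names at most 4 genes that passed 1.5-fold the same way in both comparisons with the control, by mean size. Not every gene that this rule takes is reported here.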

Additional observations from a re-analysis of the deposited data

How the results depend on the processing

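The counts and medians of the 47 genes kept their direction in both comparisons with the control under the alternatives run. After FoxO3 depletion, adjustment for GC content and length left 11 genes lower and a median log2 ratio of -0.33, and adjustment for GC content alone left 14 of 21. After co-depletion, adjustment for GC content left 8 of 23 genes lower, adjustment for GC content and length left 4 with a median of -0.34, and the 2-fold rule left 7. In the co-depletion against the FoxO3 depletion the count of genes higher went from 1 to 0 with a minimum mean of 5 FPKM, with GC adjustment, with GC and length adjustment and with the 2-fold rule. The minimum removes LIG4, the 1 gene counted. Its log2 ratio of 0.70 is under 2-fold, and GC adjustment, with or without length, took it to 0.51, under the 1.5-fold bound of 0.58. The cause of the moves in the counts of genes lower was not tested. Pseudocounts and rescaling gave between 20 and 24 genes lower in the FoxO3 comparison and between 18 and 27 in the other, with 0 higher, and the minimum mean of 5 FPKM gave 17 and 20 of the 42 genes left. Leaving out the 14 genes whose exons overlap another gene at 1 FPKM or more, chosen after seeing the data, left 15 of 33 and 17 of 33 lower. Of single genes, 24 moved beyond their counting interval with GC adjustment after FoxO3 depletion and 22 after co-depletion, and 0 called genes changed sign. No paired analysis was possible because each group holds 1 library. Depth limits the least counted genes most, with 43 reads for LIG4 in the FoxO3 depletion.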

Other observations

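Several repair genes overlap the exons of another expressed gene, and the values of these neighbours, looked up after the repair genes had been examined, are given in the order control, FoxO3 depletion and co-depletion. NPAT, an activator of histone genes that shares 143 exonic bases with ATM on the opposite strand, was at 22.3, 7.01 and 10.5 FPKM, with log2 ratios of -1.54 and -1.02 beside -1.46 and -0.96 for ATM. Its GC content is 38.8%. VRK2, opposite FANCL, was at 11.1, 6.64 and 7.71 FPKM, and ANKRD49, opposite MRE11, at 15.4, 10.7 and 10.3 FPKM. Their log2 ratios were -0.66 and -0.47 for VRK2 and -0.49 and -0.53 for ANKRD49. Other neighbours went the other way from the repair gene. POLG, the mitochondrial DNA polymerase opposite FANCI, was at 74.96, 101 and 94.2 FPKM, and LRRC41, opposite RAD54L, at 30.7, 36.6 and 37.4 FPKM, with positive log2 ratios in both comparisons. POLG and LRRC41 have GC contents of 58.2% and 53.4%. Reads of such pairs cannot be told apart where exons overlap.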
